A study of Mus musculus with 8 samples.

Results

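The 10 genes described here act in the crosslinking of collagen or in steps inside the cell that precede it. They are the 5 lysyl oxidases Lox, Loxl1, Loxl2, Loxl3 and Loxl4 and the 3 lysyl hydroxylases Plod1, Plod2 and Plod3. The prolyl hydroxylase subunit P4ha3 and the collagen chaperone Serpinh1 complete the set. All genes of the set were chosen by symbol, through the Ensembl IDs of GENCODE vM21. All 10 were found among the 54838 gene rows of both deposited tables. The RNA came from mouse embryonic fibroblasts (MEFs), the connective tissue cells of the embryo, and its polyadenylated part was sequenced as 8 libraries in 4 groups of 2. The study asked how senescence and the pH of the medium change the transcriptome.

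The n-Sen group holds cells driven into senescence with nutlin3a, which frees p53 from MDM2. RO3306, a CDK1 inhibitor, was given for 16 to 20 h alone and for 8 h with nutlin3a, and nutlin3a followed for 48 h. BI-2536, a PLK1 inhibitor that kills dividing cells, was then present at 100 nM for 14 days. The n-Sen_alkali and n-Sen_control groups are n-Sen cells that then spent 24 h in HEPES-buffered medium, set to an alkaline pH for n-Sen_alkali and to the normal one for n-Sen_control. The pH values are not given in the sources used here. The Proliferating group holds MEFs labelled as control. All groups were grown with 10% serum at 3 to 5% oxygen. The labels give no strain, sex or passage, and they do not state separate cultures. The p-values therefore measure only the spread between these libraries, which may be technical. The drugs and the weeks in culture are recorded for senescent cells alone, so they cannot be told apart from senescence itself.

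Collagen acquires its crosslinks in an ordered chain of steps. Inside the endoplasmic reticulum, prolyl hydroxylases stabilise the triple helix and lysyl hydroxylases add the hydroxyl groups that decide which kind of crosslink can form. The chaperone HSP47, encoded by Serpinh1, binds the folded triple helix and releases it at the lower pH met on the way to and in the Golgi. Outside the cell, the copper enzymes of the lysyl oxidase family turn lysine and hydroxylysine side chains of collagen and elastin into aldehydes, which then react into crosslinks. Fibroblasts are a main source of these enzymes in connective tissue, and the activity of the enzymes contributes to how stiff a matrix becomes.

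Library totals lay between 40608517 and 54183060 counts, and replicates were distinct libraries, since a chi-square of their counts came to 4.63 to 7.39 for each degree of freedom. Levels are given as CPM, a gene's counts scaled to library size, on 1 scale over all 8 libraries. The fibroblast markers Vim, Thy1 and Pdgfrb were present in every group. The summed level of 10 fibroblast markers was 5879 and 6135 CPM in n-Sen, 5946 and 5619 CPM in Proliferating, 5076 and 4979 CPM in n-Sen_alkali, and 5659 and 5831 CPM in n-Sen_control. In n-Sen against Proliferating, 6 of them were higher and 4 lower, and in n-Sen_alkali against n-Sen_control 1 was higher and 8 were lower. Markers of other cell types also moved. All 14 macrophage markers were higher in n-Sen, and their summed level was 1231 and 1306 CPM in n-Sen against 60.8 and 53.5 CPM in Proliferating. It was 1112 and 1109 CPM in n-Sen_alkali against 1261 and 1197 CPM in n-Sen_control, with 8 of the 14 lower. Of 10 epithelial markers, 6 of the 7 tested were lower in n-Sen, with sums of 10.3 and 10.5 CPM in n-Sen against 98.5 and 94.0 CPM in Proliferating, and Epcam and Krt5 were at 0 in the senescent groups. Endothelial sums were 10.3 and 8.89 CPM in n-Sen against 34.6 and 27.8 CPM in Proliferating, with Cldn5 at 0 in all libraries; of the 6 tested of 10 endothelial markers, 2 were higher, 2 lower and 2 not called in n-Sen. The part of these cell types in the results below was not tested. In bulk RNA, fewer cells of a type and less RNA per cell cannot be told apart.

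RefSeq promoter windows on GRCm38.p6 were examined for 5 of the 10 genes: Loxl4, Plod1, Plod3, P4ha3 and Serpinh1. Loxl1, Loxl2, Loxl3 and Plod2 had no entry, and Lox was left out of the search, so its promoter was not examined. Each runs over 300 bases, 250 before the gene's start and 50 after it. Of those 5, Loxl4 had the largest rise in n-Sen_alkali, P4ha3 was the one called lower there, and Serpinh1 was the one that fell in n-Sen. Their windows are shown on the gene's own strand, 5′ to 3′, with every match to ACGTG or GCGTG on either strand in capitals. These letters are the core of the site read by hypoxia-inducible factors, which act on several crosslinking enzymes.
Loxl4 promoter, chr19:42612757-42613056, minus strand: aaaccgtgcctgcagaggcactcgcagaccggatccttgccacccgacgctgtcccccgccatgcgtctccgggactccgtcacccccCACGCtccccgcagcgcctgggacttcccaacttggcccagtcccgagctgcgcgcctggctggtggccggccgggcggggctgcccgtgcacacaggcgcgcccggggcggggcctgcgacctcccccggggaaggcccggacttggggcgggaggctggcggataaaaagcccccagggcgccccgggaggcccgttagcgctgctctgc
P4ha3 promoter, chr7:100285270-100285569, plus strand: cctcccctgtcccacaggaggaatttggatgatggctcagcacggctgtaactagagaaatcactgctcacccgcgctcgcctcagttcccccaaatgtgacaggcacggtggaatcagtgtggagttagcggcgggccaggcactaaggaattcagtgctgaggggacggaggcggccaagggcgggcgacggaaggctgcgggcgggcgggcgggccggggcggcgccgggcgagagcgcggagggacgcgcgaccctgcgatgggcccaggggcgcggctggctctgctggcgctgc
Serpinh1 promoter, chr7:99353190-99353489, minus strand: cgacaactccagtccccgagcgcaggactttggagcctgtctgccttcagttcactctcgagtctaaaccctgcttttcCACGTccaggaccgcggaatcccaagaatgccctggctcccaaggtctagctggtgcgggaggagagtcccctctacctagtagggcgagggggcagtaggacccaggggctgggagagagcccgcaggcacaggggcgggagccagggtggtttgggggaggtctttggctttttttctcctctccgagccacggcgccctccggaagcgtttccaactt
The Loxl4 window held 1 match, 162 bases before the start, and Serpinh1 held 1, 171 bases before it. P4ha3 held none, while Plod1 held 2 and Plod3 held 4. At least 1 match stood in 43.8% of all 32851 RefSeq mouse promoters of the same length. The GC box GGGCGG, searched on both strands and with overlapping matches counted, occurred 3 times in Loxl4, 5 times in P4ha3 and 1 time in Serpinh1, against at least 1 occurrence in 35.7% of all promoters. GC content was 75.0% in Loxl4, 69.3% in P4ha3 and 62.3% in Serpinh1, and the median promoter had 52.7%. The windows of Loxl4 and P4ha3 held 32 and 30 CpG dinucleotides against a median of 7 over all promoters. A match is a string of letters and no measure of binding.

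In n-Sen against Proliferating cells, the crosslinking enzymes were mostly higher and the chaperone was lower. Of the members, 8 rose in n-Sen, Serpinh1 fell, and Loxl1 was not called. The largest rises were those of Loxl2, Loxl3, Lox and Plod2, between 2.69-fold and 3.75-fold. Over the whole table of 19264 tested genes the calls came to 34% higher and 33.1% lower, or 67.1% in either direction, by edgeR's quasi-likelihood test at an adjusted p under 0.05. The median log2 fold change was 0.89 over the 10 members and 0.0015 over all genes. Lox, Loxl2, Loxl3, Plod2 and P4ha3, 5 of the 10, rose by at least 1 on the log2 scale, against 17.2% of all genes. The members were chosen with earlier results of these data known, so their contrasts with all genes, here and below, are descriptive only. All 10 members, and 83.4% of all genes, had no overlap between n-Sen and Proliferating libraries, so that separation alone says little here.

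Lox, the founding lysyl oxidase of fibrillar collagen and elastin (ENSMUSG00000024529, chromosome 18, 52516067 to 52529867, minus strand), had 4433 and 4375 CPM in n-Sen libraries against 1545 and 1580.3 CPM in Proliferating libraries. Its log2 fold change was 1.497 ± 0.039 (SE; edgeR adjusted p = 1.43e-15). Both n-Sen libraries lay far above both Proliferating ones, and the level of Lox per kb of exon placed it at rank 43 of 26746 genes with counts in n-Sen and at rank 141 of 25873 in Proliferating.

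Loxl2 and Loxl3 rose even more steeply. Loxl2, which acts on fibrillar and basement membrane collagen (chromosome 14, 69609068 to 69695834), had 1078 and 1088 CPM in n-Sen against 299.9 and 279 CPM in Proliferating, a log2 fold change of 1.91 ± 0.048 (edgeR adjusted p = 8.91e-16). Loxl3, needed for palate and spine development in mice (chromosome 6, 83034173 to 83052562), had 317 and 327 CPM in n-Sen against 99.6 and 99.97 CPM in Proliferating. Its log2 fold change was 1.69 ± 0.052 (edgeR adjusted p = 1.24e-14). For both genes the replicates of a group lay close together relative to the gap between the groups.

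Loxl4 rose less. This member of the subfamily with scavenger receptor domains (chromosome 19, 42593982 to 42612813) had 84.0 and 82.0 CPM in n-Sen against 56.8 and 53.0 CPM in Proliferating. The log2 fold change was 0.60 ± 0.063 (edgeR adjusted p = 1.92e-07).

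Loxl1, the oxidase most closely tied to elastic fibre renewal (chromosome 9, 58287738 to 58313186), had 377 and 366 CPM in n-Sen against 359.8 and 338 CPM in Proliferating. Its log2 fold change of 0.09 ± 0.048 was not called (edgeR adjusted p = 0.101), with a 95% interval of -0.0095 to 0.19. Both n-Sen values were above both Proliferating values, by a gap smaller than the difference between the Proliferating replicates. Without Proliferating replicate 1 the difference was called at a log2 fold change of 0.14 (edgeR adjusted p = 0.0091), and without Proliferating replicate 2 it was 0.047 and not called (0.403). It was not called without n-Sen replicate 1 (0.340) or n-Sen replicate 2 (0.186) either.

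**Figure D1:**
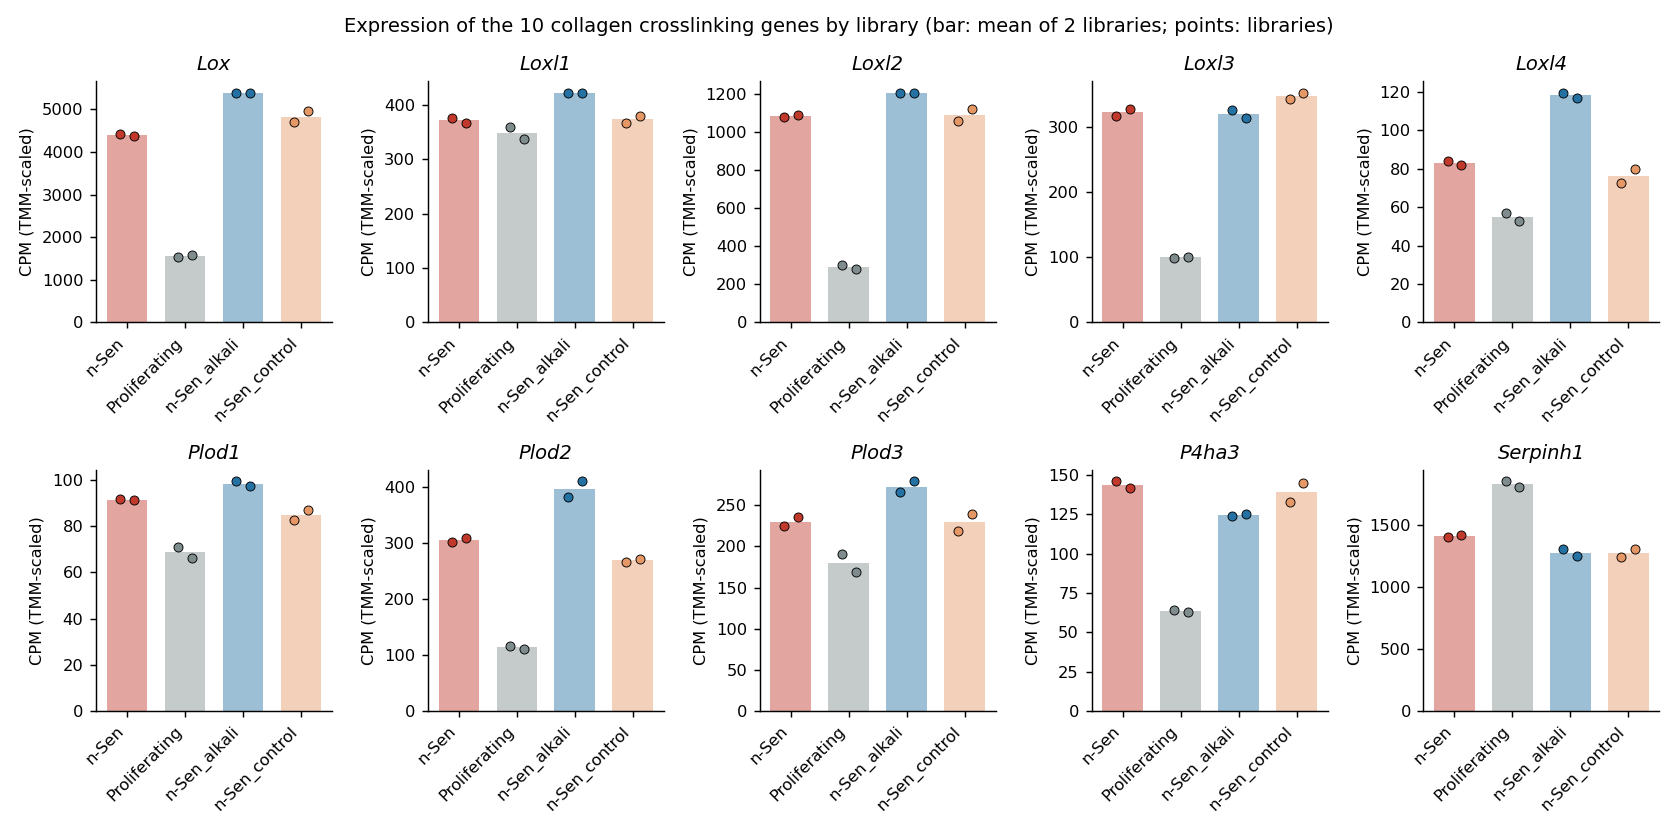
Level of each of the 10 genes in CPM (y axes start at 0 and differ in scale) in n-Sen, Proliferating, n-Sen_alkali and n-Sen_control, with 1 point per library and a bar up to the group mean (n = 2). Lox stands highest among the oxidases and reaches 5378 and 5396 CPM in n-Sen_alkali, while Serpinh1 is the gene whose n-Sen points, 1398 and 1416 CPM, lie below its Proliferating points.

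Among the lysyl hydroxylases, Plod2 moved most. Plod2 encodes LH2, the enzyme that hydroxylates lysines in the telopeptides at the ends of collagen and so favours stable hydroxylysine-derived crosslinks (chromosome 9, 92542223 to 92608428). It had 302 and 308 CPM in n-Sen against 116 and 111 CPM in Proliferating, a log2 fold change of 1.43 ± 0.052 (edgeR adjusted p = 1.09e-13). Plod1, which hydroxylates lysines in the helix (chromosome 4, 147909753 to 147936767), had 91.4 and 91.3 CPM in n-Sen against 71.0 and 66.1 CPM in Proliferating. Its log2 fold change was 0.42 ± 0.061 (edgeR adjusted p = 1.01e-05). Plod3, which also adds sugars to hydroxylysine (chromosome 5, 136987019 to 136996648), had 224 and 235 CPM in n-Sen against 191 and 169 CPM in Proliferating. The log2 fold change of Plod3 was 0.35 ± 0.059 (edgeR adjusted p = 4.14e-05). Plod1 and Plod3 thus rose in n-Sen without overlap between groups, by much smaller amounts than Plod2.

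P4ha3, a catalytic alpha subunit of prolyl 4-hydroxylase (chromosome 7, 100285520 to 100319699), had 146 and 142 CPM in n-Sen against 64.1 and 62.8 CPM in Proliferating. The log2 fold change was 1.18 ± 0.057 (edgeR adjusted p = 4.94e-12).

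Serpinh1 went the other way. The chaperone gene (chromosome 7, 99345376 to 99353239) had 1398 and 1416 CPM in n-Sen against 1848 and 1803 CPM in Proliferating. It fell by 0.37 ± 0.040 on the log2 scale (edgeR adjusted p = 2.39e-07), and thus fell by 22.8%, with both n-Sen libraries below both Proliferating ones. It remained among the most abundant transcripts, at rank 67 per kb of exon in n-Sen and rank 44 in Proliferating.

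**Figure D2:**
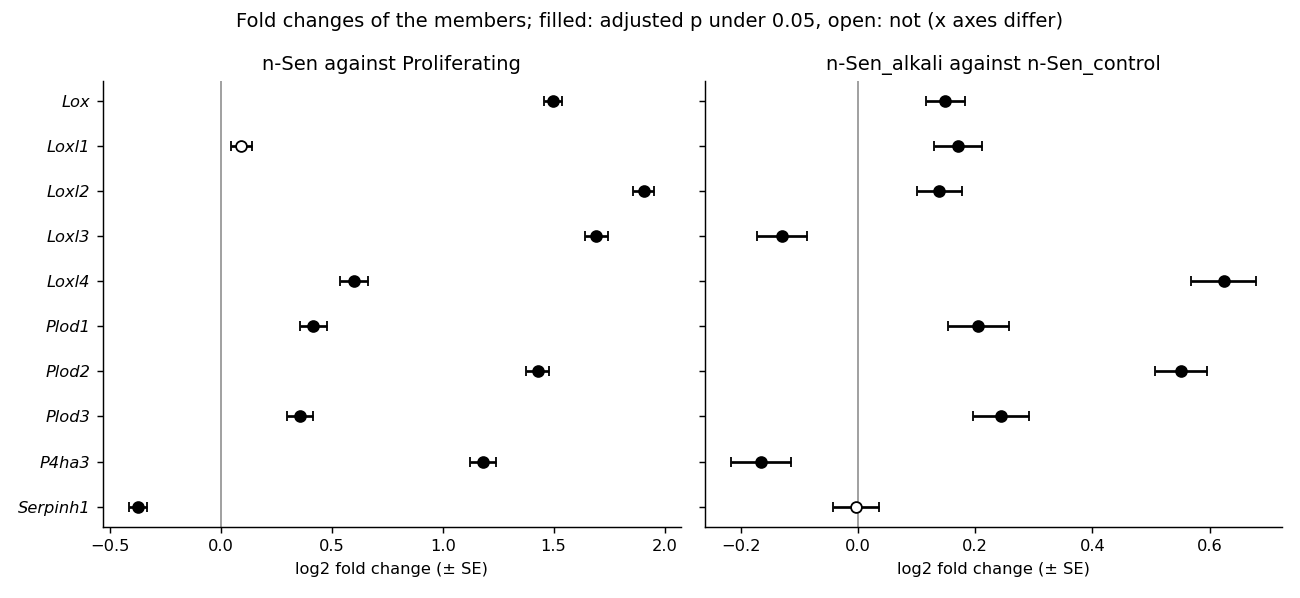
Log2 fold change of each gene with bars of 1 SE from edgeR's quasi-likelihood fit, n-Sen against Proliferating (left) and n-Sen_alkali against n-Sen_control (right). Filled points had an adjusted p under 0.05, open points had not, and the x axes differ. In n-Sen against Proliferating Loxl2 lies farthest right at 1.91 and Serpinh1 left of 0 at -0.37, and in n-Sen_alkali against n-Sen_control Loxl4 and Plod2 stand apart at 0.62 and 0.55.

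Levels of different genes were compared as CPM per kb of exon, which corrects for transcript length. On this scale Lox averaged 922 in n-Sen and 327 in Proliferating, Loxl2 averaged 200.4 in n-Sen and 53.5 in Proliferating, and Loxl1 averaged 113 in n-Sen and 106 in Proliferating. The order of the oxidases therefore differed between the groups: Loxl2 stood second in n-Sen, and Loxl1 stood second in Proliferating. Loxl3 followed at 70.0 in n-Sen and 21.7 in Proliferating, and Loxl4 was lowest at 19.7 in n-Sen and 13.0 in Proliferating.

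As shares of the summed oxidase level per kb, Lox took 69.7% and 69.4% in n-Sen libraries against 61.8% and 63.7% in Proliferating libraries. Loxl2 took 15.0% and 15.3% in n-Sen against 10.6% and 9.94% in Proliferating. Loxl1, whose own level was not called, took 8.59% and 8.43% in n-Sen against 20.9% and 19.8% in Proliferating. The makeup of the oxidase pool was thus more weighted to Lox and Loxl2 in n-Sen, and less to Loxl1. These shares are a description with 2 libraries a group.

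The lysyl hydroxylases showed a change of order as well. Plod2 took 47.0% and 46.6% of the summed hydroxylase level per kb in n-Sen against 29.0% and 30.4% in Proliferating. Plod3 took 41.6% and 42.4% in n-Sen against 56.9% and 55.2% in Proliferating, and Plod1 took 11.3% and 11.0% in n-Sen against 14.1% and 14.4% in Proliferating. Plod2 was the highest hydroxylase per kb in n-Sen and Plod3 in Proliferating. In n-Sen_control they were nearly level, with means of 49.9 for Plod2 and 50.7 for Plod3. With the length of the longest transcript, Plod2 stood first in n-Sen_control, at 73.4 against 69.8.

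**Figure D3:**
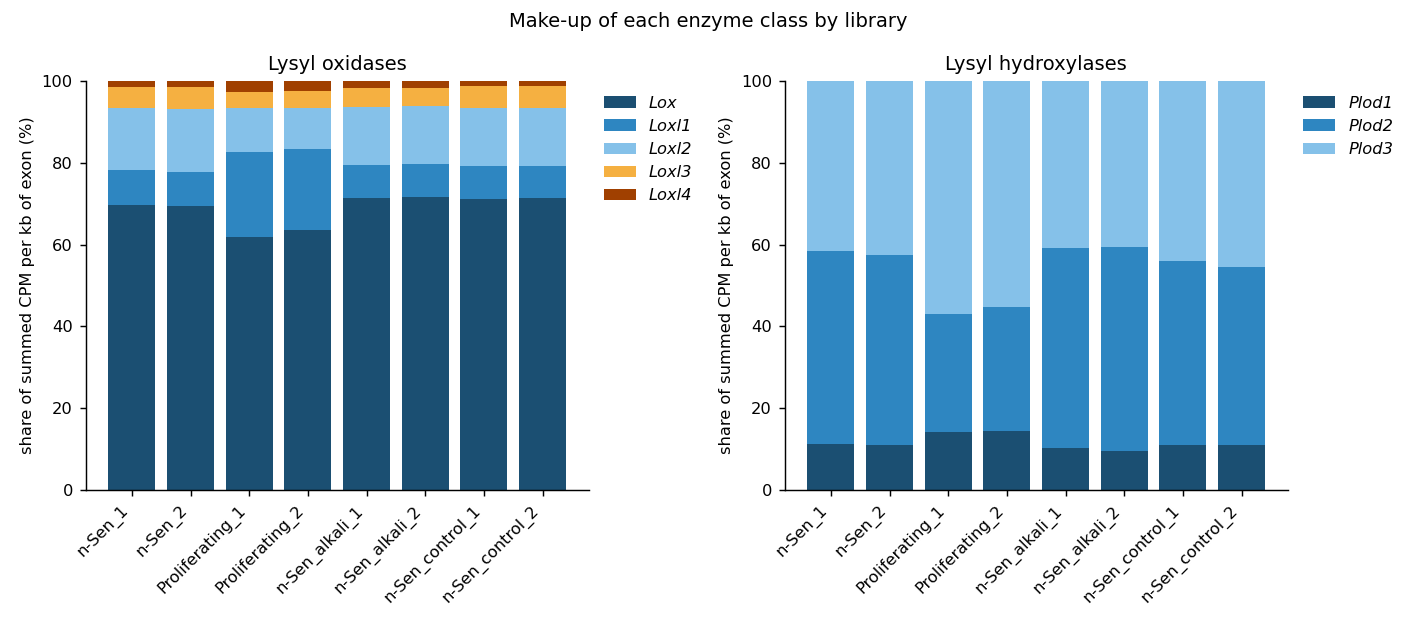
Share of each lysyl oxidase (of 5) and each lysyl hydroxylase (of 3) in the summed CPM per kb of its family, in percent, for each library of n-Sen, Proliferating, n-Sen_alkali and n-Sen_control. Plod2 holds 47.0% and 46.6% of the hydroxylase level in n-Sen libraries against 29.0% and 30.4% in Proliferating libraries, and Loxl1 holds a smaller oxidase share in all senescent libraries.

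The substrates changed too, so each enzyme family was also set against a summed CPM per kb of fibrillar collagen genes. Those summed were Col1a1, Col1a2, Col3a1, Col5a1 and Col5a2. Other fibrillar chains were left out, among them Col2a1, with a mean of 63.1 CPM in n-Sen and 830.4 CPM in Proliferating. How the ratios depend on this choice was not tested. The collagen sum was 2313 and 2233 in n-Sen against 1044 and 1054 in Proliferating. Per 100 units of collagen, the oxidases stood at 57.5 and 59.0 in n-Sen against 50.1 and 49.3 in Proliferating. The hydroxylases stood at 5.15 and 5.50 in n-Sen against 7.12 and 6.42 in Proliferating. Relative to the collagen genes summed, oxidase transcripts were thus higher in n-Sen and hydroxylase transcripts lower, although every hydroxylase rose in CPM. Serpinh1 had 24.7 and 25.9 per 100 units in n-Sen against 72.5 and 70.01 in Proliferating, the widest gap of the 3 ratios. With the length of the longest transcript in place of all exons, the ratios changed in size but kept these directions, with Serpinh1 at 19.4 and 20.3 in n-Sen against 56.7 and 54.9 in Proliferating.

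**Figure D4:**
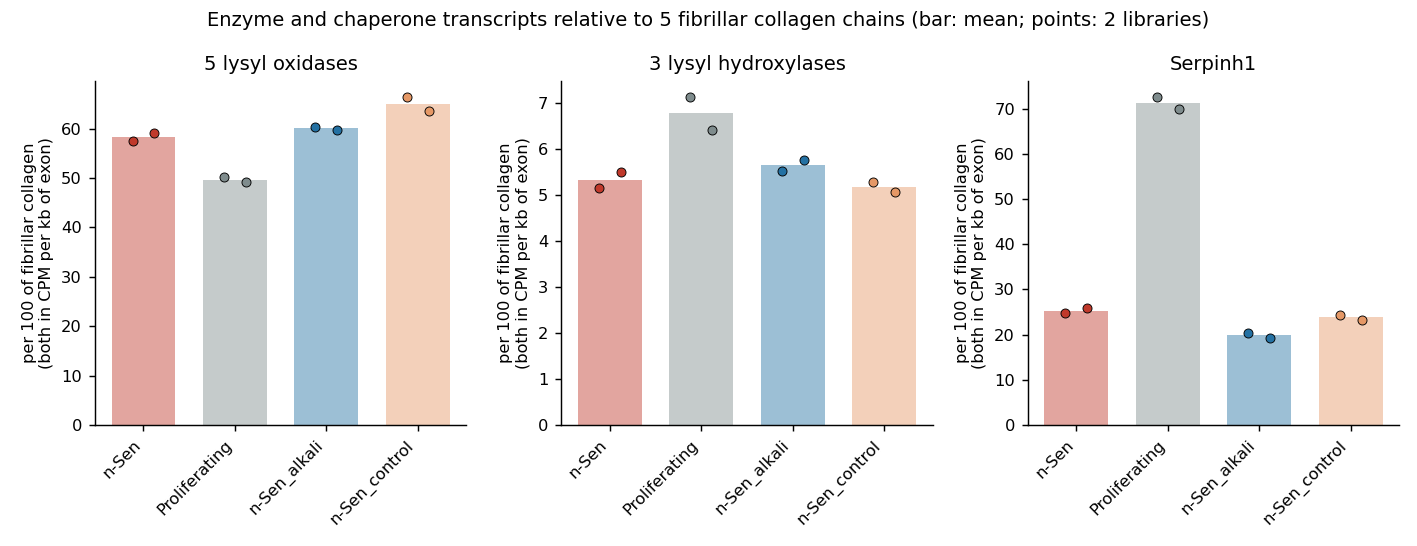
Summed CPM per kb of the lysyl oxidases, the lysyl hydroxylases and Serpinh1 for every 100 of summed Col1a1, Col1a2, Col3a1, Col5a1 and Col5a2. Each library is 1 point, and a bar reaches up to the group mean (n = 2). Serpinh1 lies at 24.7 and 25.9 in n-Sen libraries against 72.5 and 70.01 in Proliferating libraries, and the hydroxylases lie lower in n-Sen while the oxidases lie higher.

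The wider pathway moved with the members in part. Of 9 other genes of prolyl hydroxylation, 7 were higher in n-Sen and 0 lower with edgeR, with a median log2 fold change of 0.68. The count of lower genes was also 0 at an unadjusted p under 0.05 and 0 with DESeq2. They include P4ha1, a sister subunit of P4ha3, with a mean of 358 CPM in n-Sen and 159 CPM in Proliferating (log2 fold change 1.18). P3h3, a partner of LH1 in lysine hydroxylation, averaged 155 CPM in n-Sen and 53.1 CPM in Proliferating (1.54). P4ha2 and P3h2 followed at 0.998 and 1.497.

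Of 15 tested genes of collagen folding and export, 12 were higher and 2 lower in n-Sen (median 0.31). Fkbp14, a prolyl isomerase of the endoplasmic reticulum, averaged 116 CPM in n-Sen and 27.9 CPM in Proliferating (log2 fold change 2.06), and Sparc, a secreted collagen-binding protein, averaged 5365 CPM in n-Sen and 2241 CPM in Proliferating (1.26). Fkbp9, another isomerase, rose by 0.83, and Creb3l1, a transcription factor of the secretory pathway, by 1.15. The general chaperones Hsp90b1 and Hspa5 were the 2 that fell, by 0.39 and 0.31, next to the 0.37 of Serpinh1.

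Procollagen processing was split, with 3 of 7 tested genes higher and 4 lower (median -0.44). Bmp1, a protease that trims procollagen and activates lysyl oxidase precursors, averaged 283 CPM in n-Sen and 144 CPM in Proliferating (log2 fold change 0.97). The N-proteinase gene Adamts2 rose by 1.35 and the C-proteinase enhancer gene Pcolce by 0.51, while their relatives Adamts14 and Pcolce2 fell by 1.27 and 1.17. Bmp1, Adamts2 and Pcolce are all of the higher genes, whereas the rest of the 4 lower ones are not named here.

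Of 7 tested partners of the oxidases and other crosslinking enzymes, 5 were higher and 2 lower in n-Sen (median 0.52). Fmod, a collagen-binding proteoglycan that guides lysyl oxidase, averaged 177 CPM in n-Sen and 18.7 CPM in Proliferating (log2 fold change 3.25). The transglutaminase gene Tgm2 rose by 1.73 and Fbln5, which ties LOXL1 to elastin, by 0.52. Ltbp4, an elastic fibre assembly protein, fell by 2.30, and Pxdn, which crosslinks collagen IV, fell by 0.50.

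Among 12 substrates, 11 were higher and 1 lower in n-Sen (median 1.02). Eln, the elastin gene, averaged 248 CPM in n-Sen and 30.1 CPM in Proliferating (log2 fold change 3.04). Col3a1 rose by 2.60 and Col5a2 by 1.77. Col2a1, the main cartilage collagen, was the gene that fell, to 63.1 CPM in n-Sen against 830.4 CPM in Proliferating. Markers of cartilage and bone summed to 55.7 and 66.5 CPM in n-Sen against 103 and 99.1 CPM in Proliferating. Of the 7 tested of these 10 markers, 1 was higher, 4 were lower and 2 were not called.

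**Figure D5:**
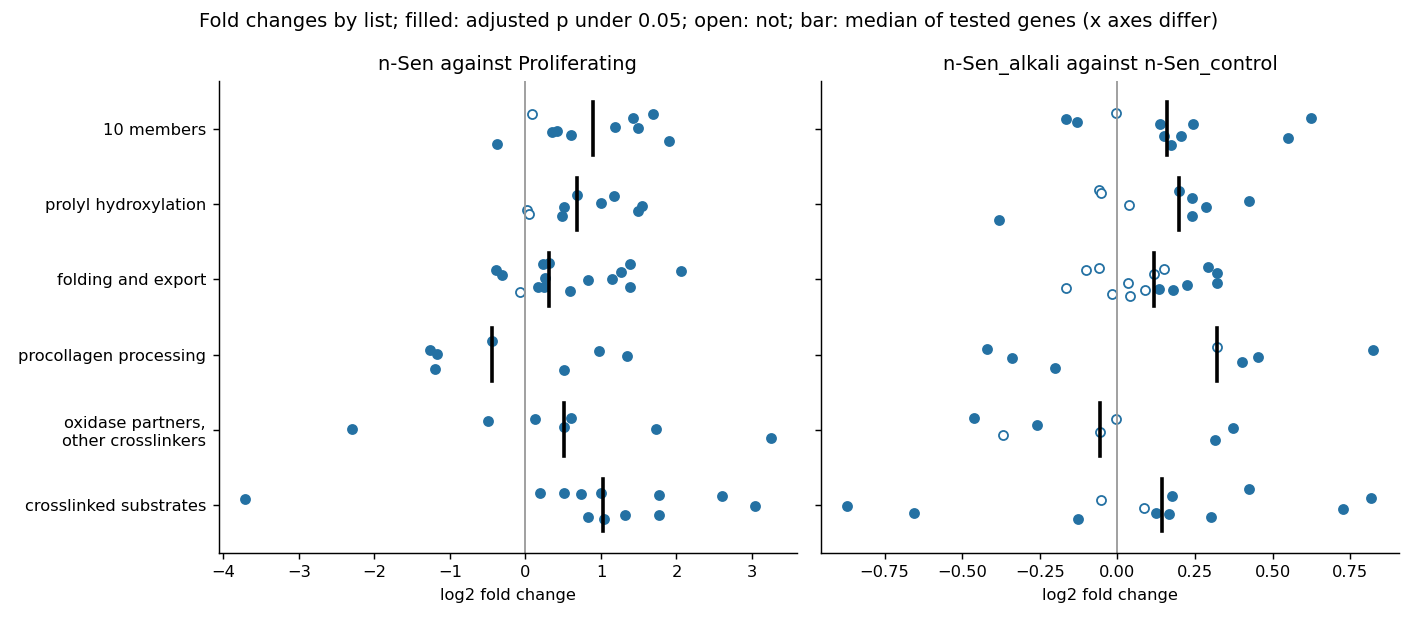
Log2 fold change of each tested gene of the 10 members and of 5 pathway lists, n-Sen against Proliferating (left) and n-Sen_alkali against n-Sen_control (right), with 1 point per gene (filled where the adjusted p was under 0.05), a bar at each list's median and x axes that differ. In n-Sen against Proliferating 11 of 12 substrates and 7 of 9 prolyl hydroxylation genes were called higher, and the procollagen processing genes lie on both sides of 0.

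The next comparison asks what alkaline medium changed in senescent cells. In n-Sen_alkali against n-Sen_control, 7 members were higher, Loxl3 and P4ha3 were lower, and Serpinh1 was not called. The sizes were small apart from Loxl4 and Plod2. The calls of Loxl2, Loxl3 and P4ha3 were lost in some fits that left out 1 library. Of all 19129 genes tested, 9.58% were higher and 10.4% lower, or 20% in either direction, by edgeR's quasi-likelihood test. The median log2 fold change was 0.16 over the members and -0.0093 over all genes. There was no overlap between the groups' libraries for 9 of the 10 members, against 56.7% of all genes. Fibroblast markers had a median log2 fold change of -0.51 and macrophage markers one of -0.28 in the same comparison, and their part in the members' differences was not tested.

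Loxl4 rose most. It had 119.7 and 117 CPM in n-Sen_alkali against 72.6 and 80.1 CPM in n-Sen_control, a log2 fold change of 0.62 ± 0.055 (edgeR adjusted p = 1.26e-08). Both alkaline libraries were well above both control libraries. Loxl4 had thus risen in n-Sen over Proliferating cells and was higher again in alkaline medium. Its share of the oxidase pool nevertheless stayed small, at 1.80% and 1.76% in n-Sen_alkali against 1.25% and 1.30% in n-Sen_control.

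Plod2 came next, with 382 and 409.9 CPM in n-Sen_alkali against 266 and 272 CPM in n-Sen_control. Its log2 fold change was 0.55 ± 0.044 (edgeR adjusted p = 2.44e-09). The alkaline replicates differed more from each other than the control replicates, and all of that spread lay above the control libraries. Plod3 had 266 and 279 CPM in n-Sen_alkali against 219 and 239 CPM in n-Sen_control, a log2 fold change of 0.24 ± 0.047 (edgeR adjusted p = 5e-04). Plod1 had 99.3 and 97.3 CPM in n-Sen_alkali against 82.7 and 86.9 CPM in n-Sen_control, a log2 fold change of 0.21 ± 0.053 (edgeR adjusted p = 0.00642). All 3 lysyl hydroxylases were therefore higher in alkaline medium, as they were in n-Sen over Proliferating cells. Plod2 held 49.0% and 49.97% of the hydroxylase level per kb in n-Sen_alkali against 44.8% and 43.4% in n-Sen_control.

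Lox had 5378 and 5396 CPM in n-Sen_alkali against 4698 and 4967 CPM in n-Sen_control, a log2 fold change of 0.15 ± 0.033 (edgeR adjusted p = 0.00202). Loxl1, which was not called in n-Sen, had 423.1 and 422.8 CPM in n-Sen_alkali against 368 and 379.9 CPM in n-Sen_control. Its log2 fold change was 0.17 ± 0.041 (edgeR adjusted p = 0.00368). Both rises were small next to the shift of Loxl4.

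Loxl2 had 1208 and 1206 CPM in n-Sen_alkali against 1061 and 1121 CPM in n-Sen_control, a log2 fold change of 0.14 ± 0.038 (edgeR adjusted p = 0.0107). Without n-Sen_alkali replicate 1 or replicate 2 the log2 fold change of Loxl2 stayed at 0.14, although the call was lost with fewer samples. Without n-Sen_control replicate 1 it was 0.10 and without n-Sen_control replicate 2 it was 0.18. Loxl3 was the only oxidase called lower, with 326 and 313 CPM in n-Sen_alkali against 342 and 353 CPM in n-Sen_control. It fell by 0.13 ± 0.042 on the log2 scale (edgeR adjusted p = 0.0329). That call was lost without n-Sen_alkali replicate 2 (edgeR adjusted p = 0.264), without n-Sen_control replicate 2 (0.095) and in a fit of all 8 libraries (0.0657).

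P4ha3 had 124 and 125 CPM in n-Sen_alkali against 133 and 145 CPM in n-Sen_control. It fell by 0.17 ± 0.051 on the log2 scale (edgeR adjusted p = 0.0226). Its log2 fold change was -0.16 without n-Sen_alkali replicate 1 and -0.17 without n-Sen_alkali replicate 2. It was -0.23 without n-Sen_control replicate 1 and -0.099 without n-Sen_control replicate 2. Of these fits with fewer samples, only that without n-Sen_control replicate 1 kept the call.

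Serpinh1 had 1304 and 1246 CPM in n-Sen_alkali against 1239.7 and 1304 CPM in n-Sen_control, and here the groups overlapped. The log2 fold change was -0.0036 ± 0.039 (edgeR adjusted p = 0.971), with a 95% interval of -0.084 to 0.077. The sum of the same collagen genes was higher, at 2611 and 2640 CPM per kb in n-Sen_alkali against 2085 and 2292 in n-Sen_control. Serpinh1 per 100 units of collagen was accordingly lower, at 20.4 and 19.3 in n-Sen_alkali against 24.3 and 23.3 in n-Sen_control. The oxidases had 60.4 and 59.7 per 100 units in n-Sen_alkali against 66.3 and 63.6 in n-Sen_control, and the hydroxylases had 5.53 and 5.76 in n-Sen_alkali against 5.28 and 5.07 in n-Sen_control. Relative to these collagen genes, the hydroxylases were thus higher and the oxidases lower in alkaline medium. Each went in the direction opposite to that in n-Sen against Proliferating cells. These ratios were not tested.

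The lists around the members were mixed in alkaline medium. Of 9 prolyl hydroxylation genes, 5 were higher and 1 lower (median 0.20). P4ha1 averaged 336 CPM in n-Sen_alkali and 283 CPM in n-Sen_control (log2 fold change 0.24), P3h4 rose by 0.24 and P4hb, the disulfide isomerase subunit shared by the prolyl 4-hydroxylases, by 0.20. P3h3 was the gene that fell, by 0.38, although its partner genes P3h4 and Plod1 rose.

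Of 15 tested folding and export genes, 6 were higher and 0 lower with edgeR (median 0.12), while 2 were lower at an unadjusted p under 0.05 and 1 was lower with DESeq2. Sec23a and Sec24d, coat proteins of vesicles that leave the endoplasmic reticulum, rose by 0.32 and 0.22. Fkbp10, an isomerase that supports telopeptide lysine hydroxylation, averaged 435 CPM in n-Sen_alkali and 354 CPM in n-Sen_control (0.29), and Creb3l1 rose by 0.32.

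Of 7 procollagen processing genes, 3 were higher and 3 lower (median 0.32). Bmp1 averaged 379 CPM in n-Sen_alkali and 285 CPM in n-Sen_control (log2 fold change 0.40), its relative Tll1 rose by 0.45, and Pcolce2 rose by 0.82. Adamts2 fell by 0.34, Pcolce by 0.20 and Adamts14 by 0.42. The Adamts14 call was lost with DESeq2 (adjusted p = 0.191), without n-Sen_alkali replicate 2 (edgeR adjusted p = 0.203) and without n-Sen_control replicate 2 (0.264).

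Of 7 tested oxidase partners and other crosslinkers, 2 were higher and 2 lower (median -0.056). Tgm2 rose by 0.37 and Pxdn by 0.31, while Fbln5 fell by 0.46 and Fmod by 0.26.

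Among 12 substrates, 7 were higher and 3 lower with edgeR (median 0.14), and DESeq2 called 4 higher. Col1a1, the main chain of type I collagen, averaged 8176 CPM in n-Sen_alkali and 6069 CPM in n-Sen_control (log2 fold change 0.42), and Col5a3 rose by 0.82. Eln fell by 0.87, to a mean of 129.8 CPM in n-Sen_alkali against 236 CPM in n-Sen_control, and Col2a1 fell by 0.65. Col3a1 fell by 0.13, a call lost without n-Sen_alkali replicate 1 (edgeR adjusted p = 0.0572) and replicate 2 (0.0862). Elastin was thus lower and the leading collagen chain higher, while Lox and Loxl1 rose slightly.

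The n-Sen_control cells differ from n-Sen cells by 24 h in buffered medium and by the table in which they were deposited, and medium and table cannot be told apart. Most members did not pass the test: Lox was higher, Plod2 and Serpinh1 were lower and 7 were not called. Of 20215 genes tested in a fit of all 8 libraries, 6.18% were higher and 4.96% lower, or 11.1% in either direction, and the libraries did not overlap for 6 members and 52% of all genes. Lox had 4698 and 4967 CPM in n-Sen_control against 4433 and 4375 CPM in n-Sen (log2 fold change 0.13 ± 0.034, edgeR adjusted p = 0.0117). Plod2 had 266 and 272 CPM in n-Sen_control against 302 and 308 CPM in n-Sen, and fell by 0.18 ± 0.047 (edgeR adjusted p = 0.0134). Serpinh1 had 1239.7 and 1304 CPM in n-Sen_control against 1398 and 1416 CPM in n-Sen, and fell by 0.15 ± 0.039 (edgeR adjusted p = 0.0166). These differences were no larger than 0.18 on the log2 scale. The call of Lox was lost without n-Sen_control replicate 2 (edgeR adjusted p = 0.121), without n-Sen replicate 1 (0.0711) and without n-Sen replicate 2 (0.122). The call of Plod2 was lost without n-Sen_control replicate 1 (0.121) and without n-Sen replicate 1 (0.0751) or 2 (0.117), and that of Serpinh1 in the same 3 fits (0.184, 0.0963 and 0.113).

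Set side by side over the 4 groups, Lox was highest in n-Sen_alkali, then n-Sen_control, n-Sen and Proliferating, with no overlap between neighbours. Loxl2 was highest in n-Sen_alkali and lowest in Proliferating, and its n-Sen_control and n-Sen libraries overlapped. Loxl3 was highest in n-Sen_control, its n-Sen and n-Sen_alkali libraries overlapped, and Proliferating was lowest. Plod2 ran from Proliferating, the lowest, through n-Sen_control and n-Sen to n-Sen_alkali. P4ha3 was highest in n-Sen and n-Sen_control, whose libraries overlapped, followed by n-Sen_alkali and Proliferating. Serpinh1 was highest in Proliferating and next in n-Sen, and its n-Sen_alkali and n-Sen_control libraries overlapped. Lox, Loxl2 and Loxl3 thus had their lowest level in Proliferating cells. Their order among the senescent groups is a description only. Loxl3 was not called in n-Sen_control against n-Sen (edgeR adjusted p = 0.135), and the Lox call there was lost in some fits that left out 1 library. Lack of overlap was common, at 52% of all genes there and 56.7% in n-Sen_alkali against n-Sen_control. The n-Sen_alkali and n-Sen groups were set side by side only, and their difference was not tested.

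The genes whose pattern lay nearest to Lox, among 1490 candidates of like spread with a mean of at least 10 CPM over the 8 libraries, were Ctsl, Nbl1 and Gm20536. Gm20536 averaged 27.9 CPM in n-Sen and 8.57 CPM in Proliferating, so it passed that mean through the senescent groups. Their root mean square differences from Lox in centred log2(CPM + 1) over the 8 libraries were 0.045, 0.060 and 0.062. Ctsl, a lysosomal protease, averaged 1126 CPM in n-Sen and 379 CPM in Proliferating, and 1286 CPM in n-Sen_alkali and 1168 CPM in n-Sen_control. For Plod2, among 1680 candidates, the nearest were Myo1d, an unconventional myosin, Papss2, which makes the sulfate donor of the cell, and Mtus1, at 0.069, 0.075 and 0.083. Myo1d averaged 100.1 CPM in n-Sen and 39.1 CPM in Proliferating, and 144 CPM in n-Sen_alkali and 97.95 CPM in n-Sen_control. Exons of Ctsl, Gm20536 and Mtus1 overlap those of other annotated genes. The likeness is a description over 8 libraries that share 4 conditions.

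Exons of 5 members overlap another annotated gene. Those of Lox share 30 bases with AC161119.1, those of Loxl2 share 308 with Mir6950 and Gm27177, and those of Loxl3 share 535 with Htra2. Those of Plod2 share 346 with Gm38391, and those of Plod3 share 538 with Mir702 and Znhit1. Since the strand setting of the counting is not given in the sources used here, reads in these stretches may belong to either gene. Loxl1, Loxl4, Plod1, P4ha3 and Serpinh1 have no such overlap.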

How the data were processed

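Per the labels' protocols, RNA was taken up in TRIzol, cleaned on RNeasy columns, selected for poly(A) and made into directional libraries with dUTP. Per the submitters' processing notes, the build was mm10 and the tools were featureCounts (Subread 2.0.2), DESeq2 1.34.0, HISAT2 2.1.0 and fastp 0.23.2. The annotation release was not given in the sources used here. The authors deposited expected counts, which may be fractions of a read, in 2 tables of 54838 rows. They were rounded to whole numbers. GENCODE vM21 on GRCm38 gave symbols for 54723 IDs, positions and exon lengths.

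In R 4.3.3, edgeR 4.0.16 served for the filter (filterByExpr), TMM scaling and the quasi-likelihood test. P-values were adjusted by Benjamini-Hochberg over all genes tested, with a threshold of 0.05. Each table was fitted on its own, and n-Sen_control against n-Sen came from a fit of all 8 libraries. The 3 fits had biological coefficients of variation of 0.0646, 0.0579 and 0.0618. The SE is the absolute log2 fold change divided by the square root of F. CPM uses 1 set of TMM factors over the 8 libraries, and CPM per kb the union of a gene's exons.

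The members and the gene lists were chosen with earlier results of these data known. The text names all members, and per list the 4 genes of smallest p with any called gene that went against the majority. For the oxidase and hydroxylase of highest mean CPM it names the 3 nearest patterns among genes with a mean of at least 10 CPM over the 8 libraries and an SD within a factor of 1.5. Alternatives were RLE scaling, no filter on low counts, DESeq2 1.42.0, unrounded values, leaving out each library, a replicate block, 1 fit of all libraries and the longest transcript as length. The longest transcript was added for the ratios to collagen after their values had been seen.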

Additional observations from a re-analysis of the deposited data

How the results depend on the processing

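In n-Sen against Proliferating, the fold changes of the 10 members kept their direction in all 100 refits, and 99 kept their side of the threshold; Loxl1 became called without Proliferating replicate 1. In n-Sen_alkali against n-Sen_control, 2 members were lower as reported, 1 in a fit of all 8 libraries, and 0 to 2 when 1 library was left out. Serpinh1, near 0 there, changed sign, with log2 fold changes of 0.0015 (RLE scaling), 0.00098 (DESeq2), 0.0038 (all 8 libraries) and -0.039 to 0.035 (1 library left out). In n-Sen_control against n-Sen, leaving out 1 library gave 0 to 1 members higher, 0 to 2 lower, 731 to 816 of all genes higher (1250 as reported) and 450 to 569 lower (1003 as reported). Of the 7 uncalled members there, 4 changed sign, between -0.067 and 0.057 for Plod3, -0.11 and 0.013 for P4ha3, -0.016 and 0.033 for Loxl1, and -0.027 and 0.051 for Loxl2. Leaving out a library also leaves fewer samples, so a lost call is no measure of a smaller effect, and a lone library was taken to vary like the others. DESeq2 called 4 substrates higher in n-Sen_alkali, against 7 with edgeR. Libraries of the same replicate number did not deviate together (r = -0.028, -0.0090 and -0.0032 across genes), so they share a number and nothing more is known. With the replicate block no member call changed. All genes called were then 6455 higher and 6271 lower in n-Sen, 2056 higher and 2254 lower in n-Sen_alkali, and 1168 higher and 910 lower in n-Sen_control. With the longest transcript as length, 42 of 52 levels, shares and ratios per kb moved by more than the replicate SD. Each group has 2 libraries, which limits the precision of the tests; the part of depth was not tested. The cause of these changes was not tested.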
